A study of Saccharomyces cerevisiae with 117 samples.

Results

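The cells described here were single spheroplasts of the budding yeast Saccharomyces cerevisiae strain S288C that were held in isotonic medium and not moved to hypotonic medium. They were the cells of the study's batch 1 with the treatment label isotonic and names that start with A, E or G, without A44, A47 and G36, which left 16 of the 117 cells of the series. The study compared isotonic cells with cells in hypotonic medium and with cells starved of amino acids or of glucose. No hypotonic or starved cell was used for any value below. All 16 came from a monoclone grown in rich YPD medium to the logarithmic phase. They were put in water and then in a softening medium. Their walls were digested with Zymolyase in synthetic medium with glucose, amino acids and 1 M sorbitol. After washing they were kept in medium of the same kind. The paper names the water and the softening medium as stresses that wall removal put on the cells. It also judges from the later stress responses that wall removal affected the cells little. The labels put the exposure time between 30 minutes and 5 hours without giving it for a single cell. The paper's methods give a shorter upper limit. No separate cultures were named, so the 16 cells were treated as 1 sample: every spread below is over cells, n = 16 unless another n is given, and no p-value was computed.

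In glucose this yeast ferments even when oxygen is present, and the enzymes of glycolysis and the proteins of the ribosome are known to be among its most heavily transcribed genes. Ribosomal protein genes and the genes for ribosome assembly are usually transcribed together with growth, while the general stress genes under the factors Msn2 and Msn4 move the opposite way. Other genes are transcribed only in a window of the cell division cycle or in bursts, so that a single cell may hold many copies of their mRNA or none.

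The 16 libraries held between 3603505 reads on genes (E11X) and 55179414 (A7). Levels are given as CPM, the reads of a gene scaled to 1000000 reads on genes in its cell. A gene with 0 reads could still lie at up to 0.0544 CPM in A7 or 0.833 CPM in E11X, taking 3 reads as the upper limit that a count of 0 allows. A gene at 10 CPM had 36 to 552 reads, a counting SD of 4.26% to 16.7% of its value; reads carried no molecular identifiers, so these figures cover counting error only. Between 1816 genes (G56) and 5679 genes (A23) had a read. The cells fell apart by name: 3501 to 5679 genes were read in the 9 cells named A and 1816 to 2852 in the 5 cells named G. With each cell thinned to 1000000 reads the A cells held 2913 to 5340 genes and the G cells 1331 to 2478, so the gap was about as wide at equal depth. The cells left out do not keep to the split: G36 had 5001 genes with a read, inside the range of the A cells, and A47 had 3488, just below it. What the letters stand for was not given in the sources used here, and cell size and RNA recovery cannot be told apart in that gap. Cells A23, A25, A26 and A28 were the most alike, and the 120 pairs of cells had a median Pearson correlation of 0.48 on the log2(CPM + 1) scale (0.36 to 0.81). Within the A cells the median was 0.55, within the 7 cells named E or G 0.42. In A34, 73.3% of the genes read were under 5 CPM, against 15.7% to 50.1% in the other cells. Spike-in RNA had 0 to 117 reads a cell, too few to measure technical noise, so the spreads below hold biological and technical variation together.

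S288C is a haploid of mating type alpha, and the marker genes fitted that label where they were read. The 5 alpha-specific genes summed to 0.371 CPM in the lowest cell (G53), 655 CPM in the median cell and 4648 CPM in the highest (A28), and their sum passed 10 CPM in 14 of 16 cells. The 7 a-specific genes summed to 24.9 CPM at most (A23), with 1099 reads over all cells against 310691 on the alpha-specific genes. SAG1, the alpha-agglutinin of the cell surface, lay at 0 CPM in the lowest cell, 113 in the median and 2698 in the highest. The gene of the alpha-factor pheromone, MF(ALPHA)1, was read at 0, 418 and 1645 CPM in the same order, and the a-factor receptor gene STE3 at 0, 86.2 and 1499 CPM. These markers were therefore absent from some cells that carried the same label, and the a-specific pheromone receptor STE2 passed 10 CPM in 1 cell, at 19.4 CPM in A23. The sum of the haploid-specific genes passed 10 CPM in all 16 cells, at 0.020% to 0.181% of the reads.

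No synchronisation is named in the labels, and cell cycle genes differed widely in how many were read. Of 32 genes of the G1 to S phase, 24 were at 10 CPM or more in A26 and 4 in A34. Of 20 genes of the G2 to M phase, A23 and A25 had 15 each and A34 and G56 none. The 10 histone genes ranged from 3 members at 10 CPM in 5 cells to 9 in A25. HHT2, a histone H3 gene, was the histone read at 10 CPM in every cell, at 59.4 CPM in the lowest, 691 in the median and 1975 in the highest. The cells with many members of one phase list mostly had many of the others too, so no cell was placed in a phase. In members at 10 CPM, A23, with the most genes read, was high in all 4 phase lists and G56, with the fewest, low in all of them. The part of the number of genes read was not tested. By share of reads the order differed. G56 held 0.309% on histones (median 0.109%), 1.11% on G1 to S genes (median 0.409%) and 0.227% on M to G1 genes (median 0.143%). Its G2 to M share was the lowest of all cells, and A23 lay below the histone median, at 0.0763%.

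**Figure D1:**
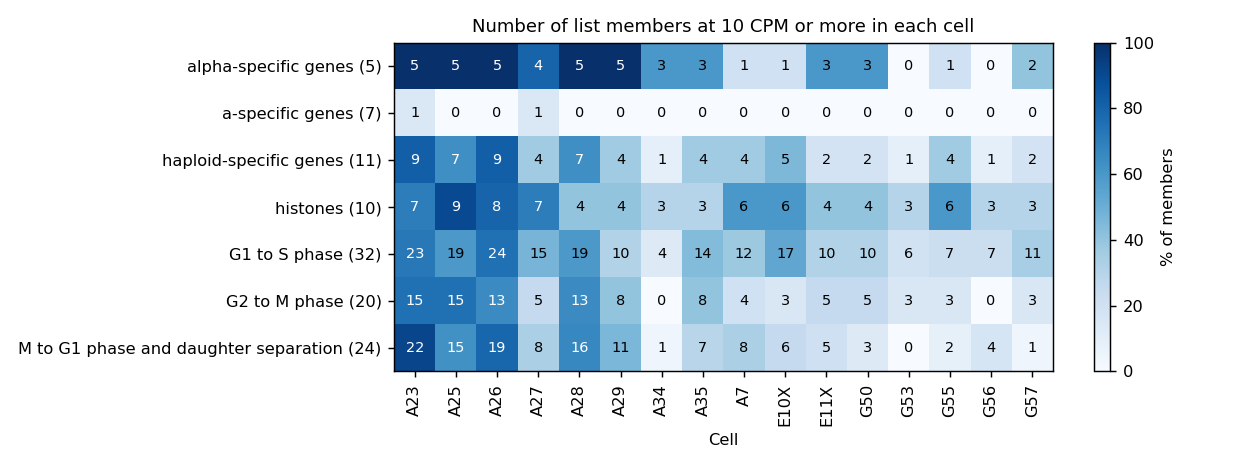
Number of members of 7 marker lists at 10 CPM or more in each of the 16 isotonic cells (columns, by name), with the shade giving the percent of the list (list size in brackets). The alpha-specific row reaches 5 of 5 in 5 cells and 0 in G53 and G56, while the a-specific row holds 1 member in A23 and A27 and 0 elsewhere.

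A few genes of fermentation took much of the mRNA. The 20 genes with the highest mean CPM held 18.6% ± 5.61 (SD) of the reads on genes, between 12.8% and 35.7% (A35), and 10 of them encode enzymes of glycolysis or ethanol fermentation. The single most abundant gene took 4.00% of the mean CPM, the 10 most abundant 14.2%, the 100 most abundant 34.1% and the 1000 most abundant 75.7%. TDH3, the main glyceraldehyde-3-phosphate dehydrogenase, had the highest mean, 40047 CPM ± 34732 (SD). It was read at 14500 CPM in G57, 33921 in the median cell and 165595 in A35, where it took 16.6% of all reads. Without A35 its cells lay close together, and its CV (SD over mean) relative to genes of like level changed from 1.12 to 0.47. PDC1, which makes acetaldehyde from pyruvate, ranged from 8673 CPM (E11X) over a median of 22715 to 50010 (A35). ENO2, an enolase, ranged from 8748 CPM (A27) over a median of 19996 to 34298 (A35). A35 was thus the highest cell for these 3 genes, and also for the aldolase FBA1 (4593, 10316 and 20386 CPM in the lowest, median and highest cell) and the mutase GPM1 (2859, 10338 and 17588 CPM). TDH3 was the most abundant gene in 13 cells, ENO2 in G50, and PDC1 in G56 and G57. PGK1, the phosphoglycerate kinase of the same pathway, stood lower, at 112 CPM in G57, 1262 in the median cell and 4934 in A28. Per kilobase of coding sequence PGK1 had a mean of 1346 CPM per kb against 40087 for TDH3, 15762 for ENO2 and 14153 for PDC1.

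**Figure D2:**
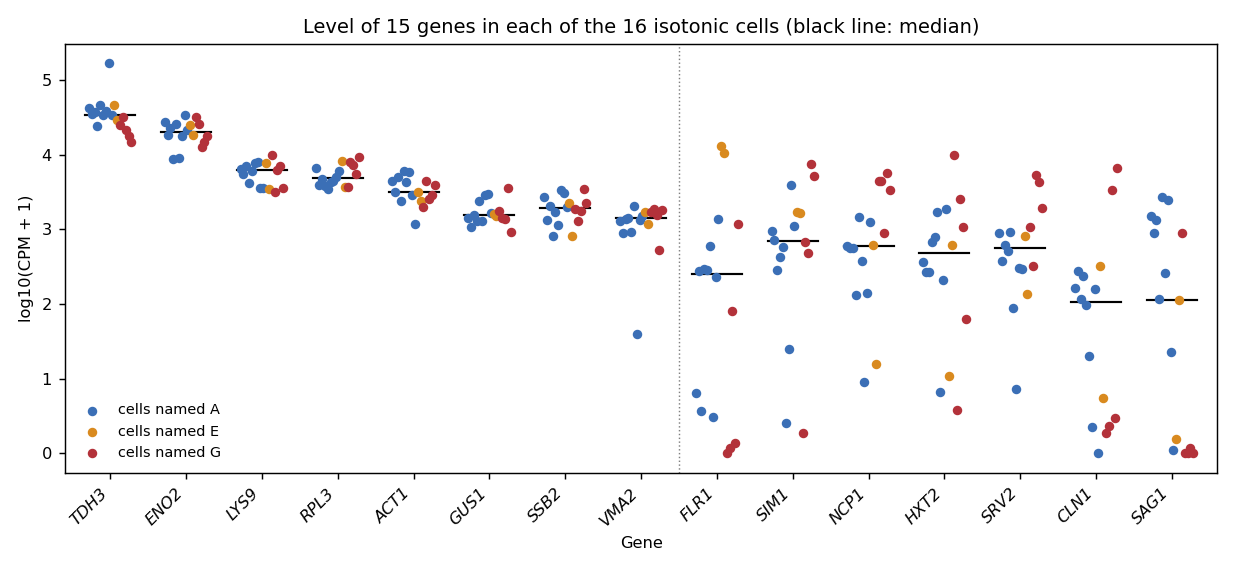
Level of 15 genes in each of the 16 isotonic cells, as log10(CPM + 1), with 1 point a cell (blue, named A; orange, E; red, G) and a black line at the median. The 8 genes left of the dotted line, from TDH3 to VMA2, lie in a narrow band apart from TDH3 in A35 and VMA2 at 38.4 CPM in A34, while the 7 genes on the right, from FLR1 to SAG1, run from near 0 to over 1000 CPM.

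Where several genes encode the same enzyme, most cells used the same copy. TDH3 held between 46.1% (G50) and 92.3% (A27) of the CPM of its family and led TDH1 and TDH2 in 16 of 16 cells. TDH1, known mainly from stationary phase, was the lesser copy, from 30.4 CPM in A34 over a median of 2765 to 14531 in G50. ENO2 led ENO1 in 15 of 16 cells, with G55 as the exception, where ENO1 held 51.4%. PDC1 held 99.0% to 100% of the pyruvate decarboxylase CPM and left PDC5 and PDC6 almost unread. The cytosolic alcohol dehydrogenase gene ADH1 led in 15 cells, and the mitochondrial ADH3 led in G57 with 61.2%. Homocitrate synthase came mainly from LYS20, which led LYS21 in 16 of 16 cells.

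Sugar uptake and phosphorylation were less uniform. The 7 hexose transporter genes HXT1 to HXT7 summed to 4.63 CPM in the lowest cell, 2691 in the median and 12977 in the highest. HXT3, a low-affinity transporter, led in 9 cells, HXT2 in 4, HXT1 in 2 and HXT5 in 1. No floor was set for a lead, and in G53 HXT2 led at 2.78 CPM. HXT2, a transporter induced at low glucose, was read at 2.78 CPM in G53, 492 in the median cell and 9824 in G50. Its CV of 1.90 was 2.40 times that of genes of like level, and 1.48 times without G50. Hexokinase 2 (HXK2) led the sugar kinases in 10 cells and hexokinase 1 (HXK1) in 6, and HXK2 took 4.64% of the family in G50 and 100% in G56. G50 thus had a low share of HXK2 and the highest HXT2, a pairing that did not hold in other cells. In G57 HXK2 took 15.7% of the family with HXT2 at 62.7 CPM, and in G55 it took 98.7% with HXT2 at 2542 CPM. Members of these families share sequence, and reads that fit several copies were not counted, so that shares between near-identical copies such as HXT6 and HXT7 are uncertain.

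Beyond sugar metabolism, the 20 most abundant genes held enzymes of amino acid synthesis, a peroxiredoxin, wall and transport proteins and the ribosomal protein genes RPL3 and RPL5. LYS9, a saccharopine dehydrogenase of lysine synthesis, was read at 3176 CPM in the lowest cell (G53), 6145 in the median and 9846 in the highest (G50). LYS20 ranged from 2148 CPM over 4642 to 13408 (G56). ARG1, the argininosuccinate synthetase, was far less even, at 2.41 CPM in G53, 4046 in the median cell and 9823 in G57. MET6, the methionine synthase, ranged from 735 CPM (A7) over 2848 to 14410 (G57), and AHP1, a thiol peroxiredoxin, from 1036 CPM (A35) over 5951 to 21050 (A27). SED1, a mannoprotein of the cell wall, ranged from 249 CPM (G57) over 5166 to 23329 (A34), and PHO84, the high-affinity phosphate transporter, from 143 CPM (E10X) over 2176 to 9049 (A34). Every one of these genes except ARG1 passed 100 CPM in all 16 cells. Ranked per kilobase, short genes moved up: RPL41A, a ribosomal protein gene with 78 bases of coding sequence, came to a mean of 10203 CPM per kb, the wall protein gene CCW12 to 7169 and HSP12, a small membrane-bound stress protein, to 4823.

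Of the 6420 gene entries 11.1% had at least 1 read in all 16 cells, and 200 (3.12%) were at 10 CPM or more in all of them. The 200 genes carried 39% of the mean CPM. Among them were 69 ribosomal protein genes, 24 of the small and 45 of the large subunit, 14 of the 21 genes of glycolysis and fermentation, 11 of 17 for translation elongation and the ribosome-bound Ssb chaperones, 5 aminoacyl-tRNA synthetases and 7 structural wall proteins. At the other end 487 entries, 187 of them protein-coding, were read in no cell. At a floor of 100 CPM, 86 genes remained, with 28.6% of the mean CPM. Genes absent from a cell were mostly low ones: the genes read in all cells had a median mean level of 474 CPM, those read in 8 of 16 cells 14.4 CPM. None of the 20 genes of the G2 to M phase was read in all cells and 1 of 21 for RNA polymerase II and the general factors, beside 11.1% of all entries. The hexose transporters, with 2 of 19, lay near that share. No member of these lists reached 10 CPM in all cells, beside 3.12% of all entries, a share at which lists of this size may hold none. The proteasome was read widely but at low level, with 17 of 33 genes read in all cells and 1 at 10 CPM in all of them. The general stress list had 10 and 1 of 36, and the respiratory chain and ATP synthase 6 and 1 of 40. Whether a gene was read in all cells depended on the G cells, and without these 5 cells 2055 genes were read in all of the remaining 11 and 462 were at 10 CPM or more.

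Cell-to-cell spread fell with the mean, so each gene was set beside genes of like level. For the 2826 genes with a mean of at least 50 CPM, the CV over the 16 cells had a median of 1.49, from 0.34 to 3.99. The relative CV is the CV divided by the median CV of the genes nearest in mean CPM, 100 on either side, and its log2 is 0 for a gene as variable as its neighbours. A relative CV of 1.5 or more was found for 416 genes (14.7%), called more variable, and one of 1/1.5 or less for 223 genes (7.89%), called less variable. In the band of 50 to 200 CPM the median CV was 1.68, and it was 1.16 between 200 and 1000 CPM, 0.775 between 1000 and 5000 CPM and 0.555 in the 14 genes above. Which genes were called moved with the scaling: 226 of the 416 and 121 of the 223 were called again after TMM scaling, which left 2573 genes to test, and 156 and 75 with DESeq2 size factors, which left 2172. At the top of the range, where few neighbours exist, the reference is flat and stands above the falling trend: against a straight line of log2 CV on log2 mean, the log2 relative CV of PDC1 was 0.078 in place of -0.93.

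**Figure D3:**
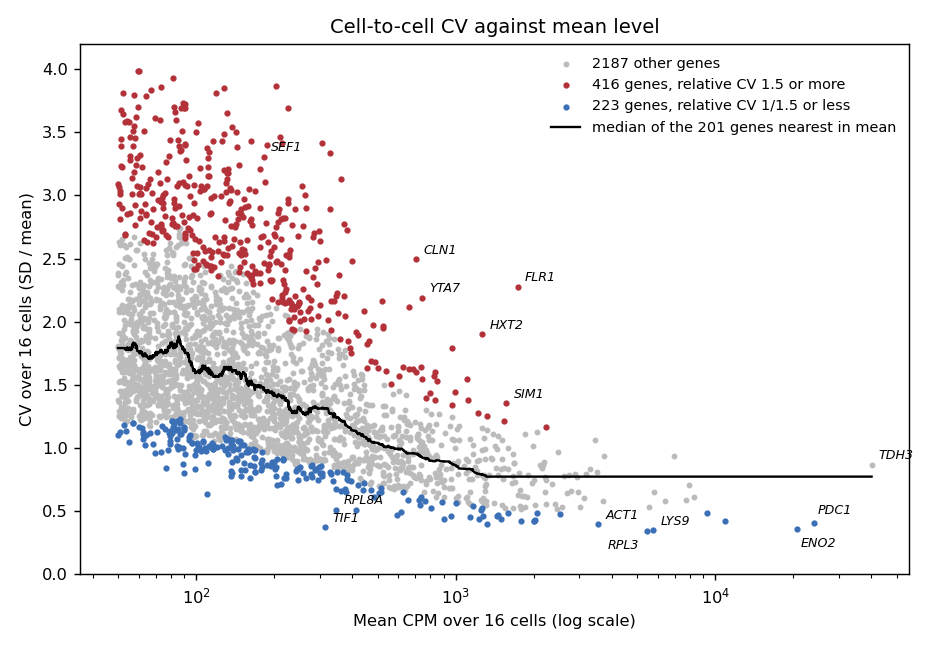
CV over the 16 cells against mean CPM (log axis) for 2826 genes, 1 point a gene, with the median of the genes nearest in mean, 100 on either side, as a black line. Red marks the 416 genes with a relative CV of 1.5 or more and blue the 223 with 1/1.5 or less. RPL3 and ENO2 lie far below the line at their level, where it is flat. FLR1 and HXT2 lie far above the line.

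The evenest genes of each level encode ribosomal, metabolic and cytoskeletal proteins, a proton pump subunit and translation factors. RPL3, a core protein of the large ribosomal subunit, had the lowest CV of all, 0.34, with 3510 CPM in the lowest cell (A28), 4889 in the median and 9373 in the highest (G57). LYS9 had a CV of 0.35 and ENO2 one of 0.36, relative CVs of 0.45 and 0.47. ACT1, actin, was read at 1173, 3147 and 6021 CPM in the lowest, median and highest cell, a relative CV of 0.51. No cell lacked any of these 4 genes. All 4 lie at the top of the range, where the reference is flat as described for PDC1. Their values against the straight line are not given here. At the next level down, VMA2, a subunit of the vacuolar proton pump (V-ATPase), lay at 38.4 CPM in the lowest cell (A34), 1407 in the median and 2054 in the highest, with a relative CV of 0.51. GUS1, the glutamyl-tRNA synthetase, ranged from 906 CPM over 1529 to 3547, and SSB2, an Hsp70 that binds the ribosome, from 809 CPM over 1932 to 3468; both had a relative CV of 0.54. Below 1000 CPM the lowest relative CV was that of TIF1, for the translation initiation helicase eIF4A, at 0.28, with 64.5, 342 and 460 CPM in the lowest, median and highest cell. Its copy TIF2 had 0.39, RPL8A 0.41, RPS8A 0.45 and the vesicle transport GTPase gene ARF1 0.47. TIF1 and TIF2 are nearly identical, and 25.9% of their 100-base windows occur once in the genome, so only a small stretch of either gene was counted. Such genes were common here: 8.97% of the less variable genes had under 90% of their windows unique, against 2.23% of all genes tested and 0.962% of the more variable ones.

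Most of the highly variable genes owed their rank to 1 cell. Only 97 of the 416 kept a relative CV of 1.5 or more when their highest cell was left out, and 589 of the 2826 genes tested (20.8%) had 50% or more of their summed CPM in 1 cell. DCV1 had 99.7% of it in A34 and PUL3, a membrane transporter gene, 99.7% in G56. FLR1, a drug efflux transporter of the plasma membrane, stood apart among the genes that did not rest on 1 cell, with a relative CV of 2.95. It lay at 0 CPM in G50, 251 in the median cell, 10544 in E11X and 12945 in E10X, so that both cells named E were the highest. SIM1, a protein of the wall-associated SUN family, ranged from 0.870 CPM over 690 to 7466 (G56), a relative CV of 1.75. NCP1, the reductase that feeds electrons to the cytochrome P450 enzymes of sterol synthesis, ranged from 8.13 CPM over 601 to 5749 (G56), and SRV2, a protein that binds actin and adenylate cyclase, from 6.24 CPM over 560 to 5363 (G55). A cell named E or G held the highest value of each of these 4 genes. G cells alone did so for 70.9% of the 416 more variable genes and 46.5% of all genes tested. HSP150, a secreted wall protein, showed the other order, with a mean of 3661 CPM in the A cells and 409 in the E and G cells, and a relative CV of 1.51 over the 16 cells and 1.92 without A28.

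Regulators, enzymes and a copper chaperone were among the variable genes of lower level. CLN1, a G1 cyclin that is transcribed late in G1, was read at 0 CPM in the lowest cell, 106 in the median, 3335 in G55 and 6548 in G57, a relative CV of 2.61. CLN2, its paralogue, was highest in another cell, G56, at 4144 CPM, and CLN1, CLN2 and CLN3 led in 5, 7 and 4 cells. No floor was set for a lead, and some rest on few reads: the sum of these cyclins was 1.04 CPM in the lowest cell. YTA7, a chromatin-bound ATPase, reached 6393 CPM in G56 against a median of 156, and ORC1, the largest subunit of the origin recognition complex, 3138 CPM in G53 against 4.09. The mitochondrial acetyl-CoA carboxylase gene HFA1 reached 2771 CPM in A34 (median 2.53), the putative transcription factor gene SEF1 2409 in G53 (median 0.112), the copper chaperone gene ATX1 1012 in A27 (median 0.348) and the peroxisomal catalase gene CTA1 972 in G53 (median 0.0896). For these last genes nearly all other cells were close to 0. They reached the mean of 50 CPM through their few high cells. A gene that enters in this way has a high CV for that reason alone. Among the 9 A cells alone CLN1, YTA7 and SRV2 were less variable than genes of like level, with relative CVs of 0.72, 0.94 and 0.90.

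The prefix of the name went with the spread. The median CV was 1.09 within the 9 A cells and 1.70 within the 7 E and G cells. Of the 416 more variable genes 295 (70.9%) had their highest value in a G cell, against 46.5% of all genes tested. G56 was the highest cell for 93 of the 416 and G57 for 81, A23 and A25 for none. Over the 1922 genes with a mean of 50 CPM in both groups, the relative CV within A cells and within E and G cells had a Pearson correlation of 0.10 and a Spearman correlation of 0.11 across genes, which are not independent and share the libraries. Of the genes less variable in the A cells 22.8% were so in the E and G cells too, beside 16.9% of all 1922 genes, and of those less variable in the E and G cells 12% were so in the A cells, beside 8.90%. The same shares for more variable genes were 4.76% of 210, beside 6.50%, and 8% of 125, beside 10.9%. The A and E or G cells differ in depth and in genes read, and the part of either in these values was not tested.

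Described by function, the lists with the lowest median log2 relative CV were the V-ATPase (-0.50, 14 genes tested of 15), glycolysis and fermentation (-0.33, 19 of 21) and the proteins of the small (-0.32, 54 of 56) and large ribosomal subunit (-0.30, 78 of 81), beside 0.00 over all genes tested. Of the ribosomal protein genes 14 of the small subunit (25.9%) and 15 of the large (19.2%) were less variable, beside 7.89% of all genes, and 1 was more variable: RPL41A, at 5.89 CPM in A28, 291 in the median cell and 3998 in A27. In the V-ATPase 6 of 14 were less variable and none more. The proteasome lay at -0.24, with 4 less variable genes of 32, and the elongation factors at -0.20, with 3 of 16. The low values of the ribosomal lists came from the E and G cells: their medians were -0.69 and -0.65 there, and 0.057 and 0.19 in the A cells alone, where A7 and A27 had high ribosomal protein shares and A28 a low one. The V-ATPase and glycolysis lists were below 0 in both groups of cells. For the glycolysis list the reference set the value, and against the straight line its median was -0.031.

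**Figure D4:**
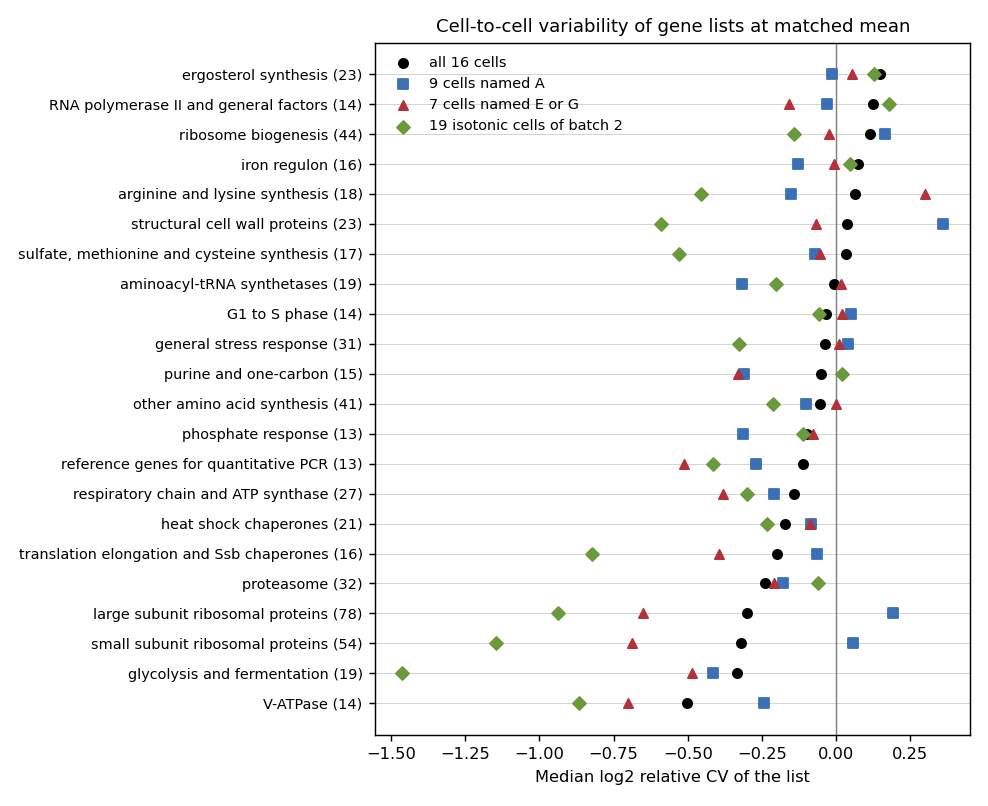
Median log2 relative CV of 22 gene lists (number of genes tested in brackets) over all 16 isotonic cells (black), the 9 cells named A (blue squares), the 7 named E or G (red triangles) and the 19 isotonic cells of batch 2 (green diamonds); the grey line at 0 marks genes as variable as others of their level. The V-ATPase and glycolysis lists lie left of 0 in every set, while both ribosomal protein lists lie right of 0 in the A cells.

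Lists above 0 lay closer to it, apart from the genes of the G2 to M phase. These had the highest median of all lists, 0.54, with 3 more variable genes among the 6 that could be tested; CLB1, a mitotic cyclin, was read at 0, 43.3 and 1611 CPM (G55) in the lowest, median and highest cell and the kinase gene ALK1 at 0, 0.307 and 1099 CPM (G55). ALK1, with a median near 0, reached the mean of 50 CPM through its few high cells. Without G55 the median of the list was 0.11. Ribosome biogenesis (0.11, 9 more and 1 less variable of 44) and ergosterol synthesis (0.15, 4 more and 1 less of 23) lay near the middle. These are 20.5% and 2.27% for biogenesis and 17.4% and 4.35% for ergosterol. Among all genes tested 14.7% were more and 7.89% less variable. In the sterol pathway ERG4, for its last reductase, ranged from 0.540 CPM over 419 to 7016 (G57) and HMG2, for an isozyme of its rate-limiting step, from 0.180 CPM over 17.8 to 3853 (G57). For both genes G57 was the highest cell, and without it HMG2 had a relative CV of 0.96 and ERG4 1.46. The general stress list, often described as noisy in yeast, was at -0.037, with 4 more (12.9%) and 1 less variable (3.23%) of 31. The share of more variable genes lay near the 14.7% of all genes tested. GPH1, glycogen phosphorylase, and GSY2, glycogen synthase, were 2 of the more variable members: GPH1 ranged from 0.982 CPM over 653 to 6890 (G50) and GSY2 from 0 CPM over 89.1 to 3426 (G50).

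Genes used as references in quantitative PCR of yeast were not equally even. Of the 15, 13 reached a mean of 50 CPM, and 4 of these (30.8%) were less variable, beside 7.89% of all genes tested. PDA1, a subunit of pyruvate dehydrogenase, ranged from 935 CPM (E10X) over 2034 to 5849 (A34), a relative CV of 0.62, close to the 0.51 of ACT1 and the 0.55 of FBA1. IPP1, the inorganic pyrophosphatase, ran from 0 CPM (G56) over 1041 to 3233 (A35), and TUB1, alpha-tubulin, from 0 CPM (G56) over 227 to 452 (G55). Those with low means failed to be read in some cells: UBC6, ALG9, TRS65, TFC1 and TAF10 reached 10 CPM in 10, 9, 9, 7 and 8 of 16 cells, with medians of 95.6, 28.7, 16.3, 3.58 and 7.65 CPM. The signal recognition particle RNA SCR1, which is abundant in yeast but carries no poly(A) tail, had a median of 0 and a highest value of 21.2 CPM in these libraries.

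The share of reads that whole lists took differed several fold between cells. Small subunit ribosomal proteins held 3.35% ± 1.79 (SD), from 1.43% in G50 to 7.74% in A7, and large subunit proteins 5.67% ± 2.77, from 2.68% in G50 to 11.7% in A7. Glycolysis and fermentation held 14.7% ± 6.35, from 7.32% in A27 to 34.3% in A35. The general stress list held 1.45% ± 0.837, from 0.232% in G56 to 2.96% in G50, and ribosome biogenesis 1.03% ± 0.530, from 0.376% in A27 to 2.21% in G55. Enzymes of amino acid synthesis other than arginine, lysine, methionine and cysteine were the steadiest of the large lists, at 3.27% ± 0.562. The share of glycolysis had a Pearson correlation of 0.028 with that of the small subunit proteins, with -0.61 within the A cells and 0.52 within the E and G cells. With the large subunit proteins the values were -0.14, -0.64 and 0.40. A35, highest in glycolysis, was low in ribosomal proteins. G50 was lowest in both ribosomal lists and highest in stress genes and hexose transporters.

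Over the 16 cells some list totals moved together. The totals of both ribosomal subunits had a Pearson correlation of 0.96 (Spearman 0.95), 0.94 without the 2 cells farthest from the median, and 0.98 within the A and within the E and G cells. Arginine and lysine synthesis moved with the other amino acid enzymes (0.73, Spearman 0.74, and 0.75 and 0.77 within the groups), as did the stress list with the V-ATPase (0.72, Spearman 0.72, 0.78 and 0.70). The small subunit proteins and the other amino acid enzymes moved in opposite ways (-0.74, Spearman -0.73, -0.67 and -0.80). Stress genes and ribosome biogenesis had a correlation of -0.45, with -0.81 within the A cells and 0.14 within the E and G cells. The small and large subunit totals had correlations of -0.25 and -0.085 with ribosome biogenesis, and of 0.12 and 0.016 with the stress list. Single genes moved together less: the median correlation between members was 0.51 for the stress list, 0.41 for the small subunit and the proteasome and 0.37 for the large subunit, against 0.17 over pairs of genes tested. These correlations describe 16 cells that share depth and name groups and whose CPM sum to a constant, and they were not tested.

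**Figure D5:**
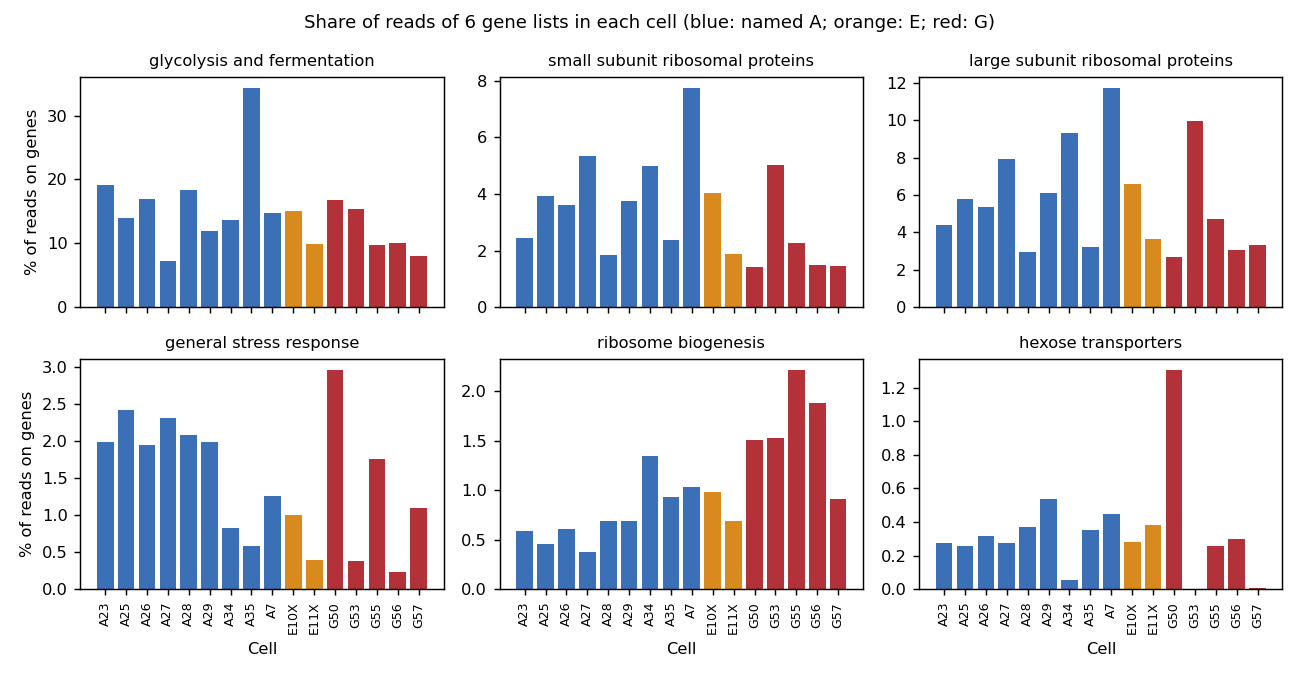
Percent of the reads on genes taken by 6 gene lists in each of the 16 isotonic cells (bars from 0, blue for cells named A, orange for E, red for G). Glycolysis reaches 34.3% in A35, the ribosomal protein panels rise and fall together with 7.74% and 11.7% in A7, and stress genes run from 0.232% in G56 to 2.96% in G50.

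Between the name groups 733 of the 2826 genes (25.9%) had a mean at least 2-fold higher in the A cells, on the scale of mean CPM + 1, and 778 (27.5%) a mean at least 2-fold lower. The general stress list was shifted to the A cells, with a median log2 ratio of 1.18, 17 of 31 genes 2-fold higher and none lower, as were the 5 alpha-specific genes (median 2.07, 5 of 5 higher), wall proteins (0.73, 10 higher and 1 lower of 23) and the proteasome (0.60, 9 and 1 of 32). Ribosome biogenesis was shifted to the E and G cells (-0.93, 3 higher and 19 lower of 44). The small subunit proteins had 11 of 54 genes higher and none lower. In single cells the groups overlapped: G50 had the highest stress share of all 16 cells and A35 and A34 were among the lower ones, and A34 had a biogenesis share above those of E10X, E11X and G57. Reads that overlapped more than 1 gene were 0.116% to 0.464% of the gene reads in A cells and 0.925% to 6.87% in E and G cells, with no overlap between the groups, and its part in these ratios was not tested.

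More variable genes were longer. Their median coding length was 1773 bases, against 1383 over the genes tested and 1053 for the less variable genes. Of the shortest genes tested, up to 891 bases of coding sequence, 4.95% were more variable and 12.9% less variable, and of the longest, from 2127 bases, 20.6% and 4.26%. Across genes the Spearman correlation of length with relative CV was 0.24, and that of GC content -0.14. The short and the long genes had nearly the same median level, 141 and 137 CPM. CPM is not divided by length, so genes matched in CPM were not matched in level per kilobase. The part of this in the values above was not tested.

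Upstream of the start codon, windows of 250 bases were searched on both strands for short binding motifs. TATAAA (or TTTATA), a form of the TATA box, was present in 40.6% of the more variable genes, 42.6% of the less variable ones and 43.5% of all 5979 protein-coding genes with a window. The stress element CCCCT (or AGGGG), the site of Msn2 and Msn4, was present in 14.4%, 23.3% and 18.7%, and CACGTG, the site of the methionine regulator Cbf1, in 3.13%, 0.897% and 2.73%. The shares thus lay close for the TATA box, and 52.0% of the 100 most abundant genes had it. The following stretches, from the RefSeq R64 genome and written on the strand of the gene, show the TATA-type matches (in capitals) of TDH3, the most abundant gene, of the 3 abundant and even genes ENO2, LYS9 and RPL3, and of FLR1, the most variable gene above 1000 CPM, to set them beside each other.
TDH3 (chrVII:883867-883896, minus strand): ttaaattctactTTTATAgttagtcttttt
ENO2 (chrVIII:451176-451205, plus strand): gttaaaaacgtaTTTATAgcaaacgcaatt
LYS9 (chrXIV:715475-715504, minus strand): ggcttaatggtaTATAAAccgtagggtcct
RPL3 (chrXV:444563-444592, plus strand): gcttcctggataTATAAAatacgatttatt
FLR1 (chrII:254227-254256, minus strand): tggtgaagctatTATAAAagagtatccgtt
In FLR1 the match lay 29 bases before the start codon, and in the others 68 to 133 bases. An even and a highly variable gene could thus carry the same letters.

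Stress genes with the same element also differed in spread. HSP12 had a relative CV of 1.29 (21.2, 1332 and 6321 CPM in the lowest, median and highest cell) and GSY2 one of 1.73, while TPS3, a subunit of trehalose synthase, had 0.69 and TMA17, a proteasome assembly factor, 0.64. All 4 carried the stress element, shown here in capitals.
HSP12 (chrVI:107054-107083, plus strand): gttccggtcgtcCCCCTcttgatctgaaag
GSY2 (chrXII:660508-660537, plus strand): gaacgcaattcaCCCCTttctttcttatgc
TPS3 (chrXIII:793569-793598, minus strand): gaattaattaatCCCCTtcagcacgcagca
TMA17 (chrIV:265010-265039, minus strand): cttgacaaaaagAGGGGtaagatctttata
Among sulfur genes, MET16, for the reductase of activated sulfate, lay at 0 CPM in the lowest cell, 62.1 in the median and 3205 in A34, with a relative CV of 2.37 and of 0.75 without A34. CYS3, for cystathionine gamma-lyase, ranged from 2.16 CPM over 346 to 4323 (A35), a relative CV of 1.76. SAH1, for the hydrolase of S-adenosylhomocysteine, was more even, at 456, 3053 and 7338 CPM (relative CV 0.78), and MET14, for adenylylsulfate kinase, had a relative CV of 0.75. All 4 genes have a Cbf1 site in the window, in capitals below.
MET16 (chrXVI:877793-877822, minus strand): ttatcatcatttCACGTGgctagtaaaaga
CYS3 (chrI:130571-130600, plus strand): taattagccattCACGTGatctcagccagt
SAH1 (chrV:237340-237369, minus strand): atttctgtgCACGTGatctcgttggctttt
MET14 (chrXI:439596-439625, minus strand): tgccactaatttCACGTGatcaatatattt
MET16 and CYS3 were highest in A cells, A34 and A35, and SAH1 and MET14 in the G cells G56 and G50.

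The 19 isotonic cells of batch 2, which the rule did not use, gave a separate set of values, at much lower depth (14245 to 1133518 reads on genes). Of the 20 most abundant genes 11 were among the 20 most abundant there too. Over the 1433 genes with a mean of 50 CPM in both batches the relative CV had a Pearson correlation of 0.23 and a Spearman correlation of 0.20. Of 123 less variable genes tested in batch 2, 38 (30.9%) were less variable there as well, beside 18.3% of all genes tested in both, and of 155 more variable genes 8 (5.16%), beside 4.26%. The evenest genes of the abundant band also had low values in batch 2: the relative CV was 0.45 for RPL3, 0.41 for LYS9, 0.21 for ENO2 and 0.25 for PDC1. Both sets of cells used the local reference that is flat at the top of the range. In the main set the log2 relative CV of PDC1 was 0.078 against a straight line. The genes of batch 2 were not set against a line, so the part of the flat reference in these low values was not tested. Of the variable genes SIM1 had 0.74, HXT2 0.72 and CLN1 0.92 there, none above genes of like level. The glycolysis list, which holds ENO2 and PDC1, had a median of -1.46 with the same flat reference. The small and large ribosomal subunits had medians of -1.15 and -0.94 and the V-ATPase -0.87. Proteasome genes were at -0.063 in batch 2, near 0.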

How the data were processed

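Single cells were sequenced as full-length cDNA. The deposited files hold read counts per gene, 1 file a cell, which the authors made with STAR 2.5.2 and HTSeq on genome build R64 (RSEM 1.2.31 is also among the submitters' processing notes); the strand setting was not given in the sources used here. Rows for spike-in RNA and for reads without a single gene stayed out of all totals. CPM took the reads on gene rows as the total. Relative CV used genes with a mean of 50 CPM and a window of 201 genes. The software was matplotlib 3.10.9 and pandas 2.3.3 under Python 3.11.15, with SciPy 1.17.1 and NumPy 2.4.6, and R 4.3.3, in which edgeR 4.0.16 and DESeq2 1.42.0 gave alternative scalings only. The relative CV was tested on simulated data. Of 6420 entries, 6019 were matched to RefSeq by locus tag and 42 by symbol, and 359 were not matched. No test was run, since the cells form 1 sample. Named genes were the 20 highest in CPM and per kb, the 4 highest and 4 lowest in relative CV in each of 4 bands of mean (the former only if they kept 1.5 without their highest cell), the 2 highest and 2 lowest of each list, all mating type, histone, galactose and reference genes, and the 2 genes most confined to 1 cell, and isoenzymes outside the rule were picked with their values in view. The cells, gene lists and rules were chosen with earlier results of these data known.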

Additional observations from a re-analysis of the deposited data

How the results depend on the processing

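Limits. Cells of 1 group were described, no spike-in signal separates technical from biological spread, and reads without molecular identifiers are not independent molecules. Depth differed 15.3-fold, which limits what can be said of genes under about 10 CPM. No paired analysis was possible because no replicate numbers pair these cells and no test was run. The alternatives without the G cells, without A34 or A23, A25, A26 and A28, with a straight line or with unique genes only were chosen after seeing the data.

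Genes read in all cells came to 6.09% of the entries at 5 reads, 6.17% with each cell thinned to 1000000 reads and 32% without the G cells, and those at 10 CPM in all cells to 5.59% at a floor of 1 CPM, 1.34% at 100 CPM and 7.20% without the G cells. More variable genes were 7.40% of the genes tested with the highest cell of each gene left out and 6.84% in E and G cells only, and their number was 261 with DESeq2 size factors, 156 of them among the 416, and 143 at a mean of 200 CPM. With TMM scaling 226 of the 416 were called again. Less variable genes were 12.1% with TMM scaling, 15.5% with DESeq2 size factors, 3.18% without the highest cells and 14% in E and G cells only, and numbered 92 at a mean of 200 CPM. Of the 223, 121 were called again with TMM and 75 with DESeq2 size factors. At a mean of 10 CPM, 2820 genes were 2-fold apart between the name groups, 1739 of them higher in A cells. The cause of these shifts was not tested, beyond the smaller number of genes or cells.

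The median log2 relative CV of the small subunit list was -0.13 with TMM scaling, 0.057 in A cells, -0.69 in E and G cells, -0.52 by the SD of log2(CPM + 1), -1.15 in batch 2 and -0.033 without the G cells. The large subunit list had 0.19 in A cells, -0.65 in E and G cells, -0.68 by the SD of logs, -0.94 in batch 2 and 0.048 without the G cells. Glycolysis had -0.50 with a window of 200 genes on either side, -0.18 without the highest cell of each gene, -0.49 in E and G cells, -0.18 with the 3 left-out cells added, -0.73 by the SD of logs, -1.46 in batch 2 and -0.031 against a straight line. The V-ATPase had -0.72 with DESeq2 size factors, -0.32 at a mean of 200 CPM, -0.28 without the highest cells, -0.24 in A cells, -0.70 in E and G cells, -0.16 by the SD of logs, -0.87 in batch 2 and -0.35 without the G cells. The G2 to M list had -0.011 at a mean of 10 CPM, 0.013 in A cells and 0.043 by the SD of logs.

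Single genes changed sign in log2 relative CV as follows: PDC1 0.078 against a straight line, SSB2 0.017 with TMM, SIM1 -0.037 and SRV2 -0.14 with DESeq2 size factors, NCP1 -0.062 in E and G cells, SRV2 -0.15, YTA7 -0.091 and CLN1 -0.48 in A cells, and SRV2 -0.19, YTA7 -0.027 and CLN1 -0.38 without the G cells.

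With each cell left out in turn, genes read in all cells ranged from 11.1% to 13.3%, those at 10 CPM from 3.12% to 3.89%, the share of the 20 most abundant from 17.5% to 19%, more variable genes from 13.6% to 15.9% and less variable ones from 6.86% to 9.31%. The medians ranged from -0.44 to -0.29 for the small subunit, -0.36 to -0.24 for the large subunit, -0.37 to -0.28 for glycolysis, -0.56 to -0.43 for the V-ATPase and 0.11 (without G55) to 0.64 for G2 to M.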

Other observations

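Of 18 genes for arginine and lysine synthesis tested, 3 (16.7%) were more variable, beside 14.7% of all genes tested, and 4 (22.2%) less variable, beside 7.89%, with a median log2 relative CV of 0.065, and they held 2.94% ± 1.17 (SD, n = 16 cells) of the reads, from 1.03% in G53 to 5.67% in G56. The iron regulon held 0.442% ± 0.253 of the reads, from 0.160% in A27 to 0.995% in G57, and its total moved with that of the purine and one-carbon list over the 16 cells (Pearson 0.79, Spearman 0.73, 0.60 in the A cells and 0.68 in the E and G cells), a description without a test. The cells A44, A47 and G36, which were left out, had 6505092, 5022051 and 12440055 reads on genes and 4956, 3488 and 5001 genes with a read. G36 lay far above the other cells named G, which had at most 2852.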
